A study of Mus musculus with 52 samples.

Results

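The nuclear genes of the mitochondrial respiratory chain were followed across endothelial cells (ECs) of barrier and fenestrated vessels in the mouse. Members were the protein-coding genes whose symbol begins with Nduf (the subunit series a, b, c, s and v and Ndufab1), Uqcr, Atp5 or Cox4 to Cox8, together with Sdha, Sdhb, Sdhc and Sdhd. The rule found 85 genes among 21884 protein-coding genes and used no measured value. They comprise 38 genes of complex I (NADH dehydrogenase), 4 of complex II (succinate dehydrogenase), 8 of complex III (the cytochrome bc1 complex), 18 of complex IV (cytochrome c oxidase) and 17 of complex V (ATP synthase). Complexes were assigned by symbol, so Ndufa4 and its relative Ndufa4l2 count under complex I, although Ndufa4 is now known as a subunit of complex IV. The label holds: 73 to 81 of the 85 were present at 1 TPM or more (TPM is a gene's share of all transcripts, corrected for length and scaled to a fixed total) in each of the 40 RNA libraries, and 62 to 77 at 10 TPM or more.

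Complexes I and II take electrons from NADH and succinate, complex III passes them to cytochrome c, complex IV passes them to oxygen, and complex V uses the resulting proton gradient to make ATP. Some membrane subunits of complexes I, III, IV and V are encoded by mitochondrial DNA, while all subunits studied here are encoded in the nucleus, translated on cytosolic ribosomes and imported. Several subunits have another gene that is used in particular tissues, such as heart, skeletal muscle, lung or testis. Brain ECs of the blood-brain barrier (BBB) have long been described as rich in mitochondria relative to other capillaries, whereas ECs also make much of their ATP by glycolysis. ECs of the circumventricular organs, the anterior pituitary and the choroid plexus are fenestrated and permeable.

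Barrier ECs came from cerebellum and cerebral cortex, and fenestrated ECs from anterior pituitary, posterior pituitary and choroid plexus. For the sorted cells, WT mice carried Tie2-GFP alone, with neither Cre nor 4-hydroxytamoxifen (4HT), and beta-catenin stabilized mice carried Tie2-GFP, Pdgfb-CreER and a Ctnnb1 allele whose exon 3 is removed by Cre, and were given 100 ug 4HT at postnatal day 10. All were adult males, and each pituitary replicate pooled 20 to 30 mice aged 30 to 90 days. GFP-positive cells (ECs) and GFP-negative cells (parenchyma) of cerebellum, anterior pituitary and posterior pituitary gave 24 libraries. RiboTag libraries came from cortex and choroid plexus of mice aged 6 to 8 weeks, in which Pdgfb-CreER and 4HT switched on an HA-tagged ribosomal protein in ECs of WT and stabilized animals alike. RNA bound to the tagged ribosomes (bound) was taken from a supernatant cleared of mitochondria, and RNA of the homogenate was kept as input, which gave 16 libraries with 3 to 4 mice pooled for each choroid plexus sample. Every one of the 20 groups had 2 libraries. ATAC-seq, which maps open chromatin, was done on the sorted ECs in 12 libraries. Recombination by Pdgfb-CreER is mosaic, the genotypes of the sorted cells differ in Cre and 4HT as well as in beta-catenin, and the loss of exon 3 of Ctnnb1 cannot be read from values summed over a gene.

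The promoters of these genes are known for sites of the nuclear respiratory factors, and 3 motifs were sought on both strands in RefSeq promoters (GRCm38.p6, 250 bases before to 50 after the start). Of the 85 members 67 had a promoter in the table, 72 promoters in all. The NRF1 motif GCATGCGC lay in 10 member promoters (13.9%), against 2.71% of all 32851 promoters and 3.66% of those of protein-coding genes. The ETS motif CCGGAAG, bound by GABPA (NRF2), lay in 16 (22.2%), against 8.86% and 11.9%, and the YY1 motif AAGATGGCG in 7 (9.72%), against 1.4% and 1.93%. At least 1 of the 3 was present in 27 member promoters (37.5%), against 12.1% of all promoters and 16.2% of those of protein-coding genes. The ETS motif ends and the YY1 motif begins with AAG, so that 1 stretch can hold both, though no matches of different motifs overlapped in the members. A match is a description of the sequence and not a bound site, and its absence says only that these letters are not in the window. Examples from each complex that held one are shown on the gene's own strand, 5′ to 3′, with the match in capitals.

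Ndufa8, complex I, NRF1, chr2:36049328-36049357, minus strand: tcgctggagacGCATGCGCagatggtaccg
Sdhb, complex II, NRF1, chr4:140961206-140961235, plus strand: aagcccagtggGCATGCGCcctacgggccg
Cox6a1, complex IV, NRF1, chr5:115349100-115349129, minus strand: aggaacggggcGCATGCGCgctctcgctcc
Atp5g2, complex V, NRF1, chr15:102671069-102671098, minus strand: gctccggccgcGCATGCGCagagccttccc
Uqcrh, complex III, ETS in reverse complement, chr4:116075062-116075091, minus strand: agtatgccgcaCTTCCGGccaggtcgccgg
Cox6b1, complex IV, ETS in reverse complement, chr7:30626124-30626153, minus strand: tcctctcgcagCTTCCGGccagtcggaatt
Atp5h, complex V, ETS in reverse complement, chr11:115419939-115419968, minus strand: caaggagagaaCTTCCGGcaactctcttcc
Ndufs3, complex I, ETS, chr2:90904730-90904759, minus strand: cccgcgtccgcCCGGAAGaagagtcactgc

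The YY1 motif was shared in another respect that the rule did not use. All 7 matches read on the gene's strand, and the 6 printed here lie after the start, with their first base between positions 23 and 36. The remaining match, in Atp5j, lies before the start, at bases -88 to -80. How the motif lies in the promoters of other genes was not counted.

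Ndufs4, chr13:114388045-114388074, minus strand: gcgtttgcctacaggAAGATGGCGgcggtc
Ndufs6, chr13:73328433-73328462, minus strand: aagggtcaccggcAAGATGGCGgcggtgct
Ndufs7, chr10:80249463-80249492, plus strand: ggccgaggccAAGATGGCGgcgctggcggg
Ndufa9, chr6:126849096-126849125, minus strand: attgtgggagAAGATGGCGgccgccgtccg
Ndufc1, chr3:51408914-51408943, minus strand: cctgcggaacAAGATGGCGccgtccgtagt
Atp5j2, chr5:145191499-145191528, minus strand: ccaggacttcAAGATGGCGtcactcggtga

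The presence of a peak at the gene starts was near uniform across tissues and genotypes, and the height of the peaks was not compared. A peak within 500 bases of the start, kept where its enrichment ratio and its -log10 q each exceeded 2, was present for 71 to 76 of the 85 members (83.5% to 89.4%) in the 12 ATAC-seq libraries, against 68.5% to 77.7% of the 14576 protein-coding genes tested in the sorted ECs. It was present in all 12 libraries for 70 members (82.35%) and for 63.38% of those genes. Counting any annotated transcript start, 7 members had no peak in any library: Cox4i2, Cox6a2, Cox7b, Cox7b2, Cox8b, Cox8c and Ndufa4l2. Of these 6 are the tissue-restricted gene of a subunit, and Cox7b is the general form beside Cox7b2.

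**Figure D1:**
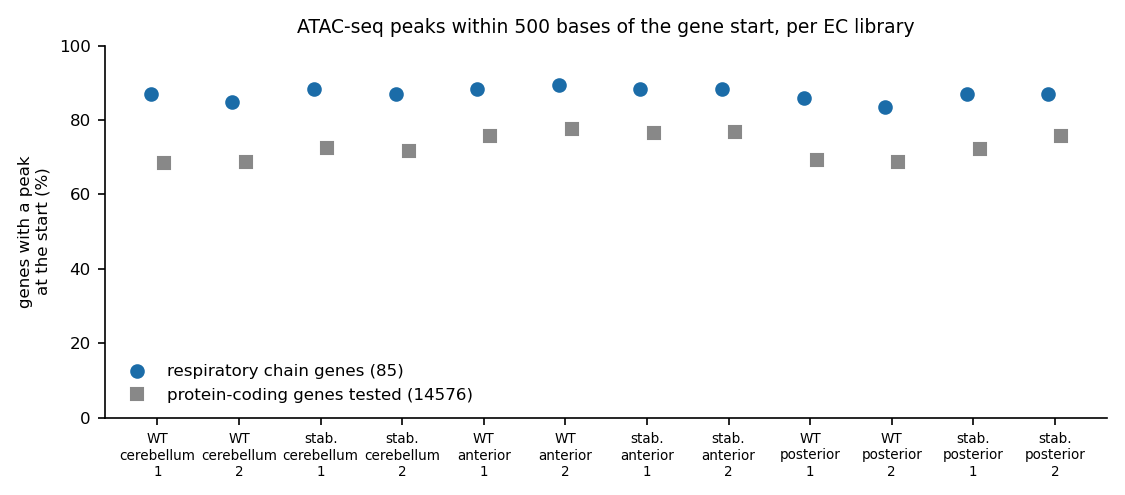
Percentage of genes with an ATAC-seq peak within 500 bases of the gene start (vertical axis) in each of the 12 libraries of sorted ECs, for the 85 members and for 14576 protein-coding genes. Members lie between 83.5% and 89.4% in every library, above the other genes of the same library.

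The depth was 17260078 to 33458597 estimated reads in the GFP-positive libraries, 12157485 to 37529274 in the GFP-negative, 6409013 to 21399125 in the bound and 7771798 to 21211999 in the input libraries. Endothelial markers (10 genes) summed to 1943 to 7252 TPM in GFP-positive libraries and 3.28 to 35.02 TPM in GFP-negative ones, and to 496 to 1385 TPM in bound against 20 to 56 TPM in input libraries. Other cells were present in the EC libraries: mural markers summed to 800 and 631 TPM in WT cerebellum ECs against 84 to 224 TPM in WT pituitary ECs, hormone genes of the pituitary to 6881 and 4418 TPM in WT anterior pituitary ECs and 3377 and 478 TPM in WT posterior pituitary ECs, and microglia markers to 3870 and 2694 TPM in WT cortex bound RNA against 102 and 109 TPM in its input. The WT cortex RiboTag libraries stand apart from the other RiboTag libraries: the 13 mitochondrially encoded subunits took a mean of 23.369% of TPM in their input against 4.3997% in stabilized cortex input, and the mean effective length per read was 511 to 627 bases against 209 to 313. In the WT posterior pituitary ECs, replicate 2 had 17260078 reads, the lowest of the GFP-positive libraries, and a lower share of reads on genes with an effective length under 500 bases (10.71%, the lowest of the 12, against 14.28% in replicate 1). Of the 82 members tested in these cells 68 are that short. A stabilized anterior pituitary EC library (replicate 2) is named posterior pituitary in its tissue label and anterior in its title, and was taken as anterior. No member was called in stabilized against WT anterior pituitary ECs with it or without it. The spread between libraries of a group is the spread between 2 pools of mice, and fewer cells of a kind cannot be told apart from less RNA per cell.

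Together the 85 genes took 0.4653% to 1.181% of all TPM in the 40 libraries, with a median of 0.7812%. In WT ECs the share was 0.787% and 0.666% in cerebellum, 1.034% and 0.860% in anterior pituitary, and 0.983% and 0.573% in posterior pituitary. In stabilized ECs it was 0.704% and 0.782%, 0.875% and 0.814%, and 0.754% and 0.739%. The ranges of WT cerebellum and WT posterior pituitary overlapped, and both anterior pituitary libraries lay above both cerebellum libraries. In WT cerebellum ECs complex I took 0.2071% ± 0.0266 (SD, n = 2) and complex IV 0.241% ± 0.0439. There complex II took 0.03% ± 0.009, complex III 0.0673% ± 0.0033 and complex V 0.181% ± 0.0025. The shares of complexes I and IV include Ndufa10 and Cox7b, whose TPM rests on short estimated lengths, given below. The order of complexes I, IV and V in these cells is therefore uncertain. In all 4 choroid plexus groups and in both stabilized cortex groups complex V led, with 0.3582% ± 0.0341 of TPM in WT choroid plexus input against 0.2622% ± 0.002 for complex IV, and 0.2496% ± 0.0051 in stabilized cortex input against 0.226% ± 0.0113 for complex I. In WT cortex complex I led. The 13 mitochondrially encoded subunits took 0.8803% to 41.33% of TPM, a far wider range than the nuclear genes.

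**Figure D2:**
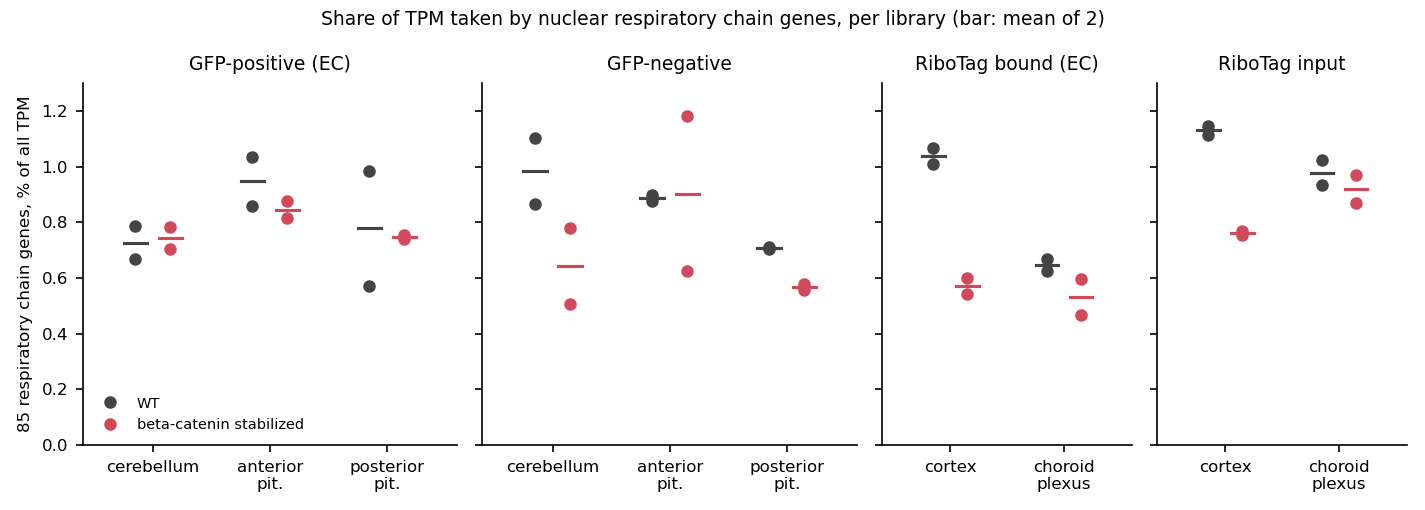
Percentage of all TPM taken by the 85 members (vertical axis) in each of the 40 RNA libraries, by tissue and fraction, with 1 point per library and a bar at the mean of 2. WT anterior pituitary ECs (0.860 and 1.034) lie above WT cerebellum ECs (0.666 and 0.787), and bound libraries of choroid plexus (0.465 to 0.669) lie below their inputs (0.870 to 1.023).

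The most abundant member of each complex in the WT sorted ECs was Ndufa10 (complex I, mean 300.56 TPM), Sdha (the flavoprotein of complex II, 264.57 TPM), Uqcrb (the ubiquinone-binding protein of complex III, 212 TPM), Cox7b (a small subunit of complex IV, 818.65 TPM) and Atp5h (subunit d of the complex V stalk, 312.44 TPM). With the bound libraries included Atp5b, the catalytic beta subunit, led complex V at 380.98 TPM. Uqcrb was the steadiest, at 245 and 236 TPM in WT cerebellum ECs, 221 and 213 TPM in anterior pituitary, and 258 and 99.3 TPM in posterior pituitary, with 206 to 258 TPM in the 6 stabilized EC libraries. All but the posterior pituitary replicate 2 lie within a narrow band. Cox7b was at 904 and 524 TPM in WT cerebellum ECs, 1668 and 791 TPM in anterior pituitary and 1008 and 17.3 TPM in posterior pituitary, and at 9.44 and 1145 TPM in stabilized cerebellum ECs. Its low values fall where Salmon estimated an effective length of 285.6 bases (WT posterior pituitary replicate 2) and 300.2 bases (stabilized cerebellum replicate 1), against 17.8 to 32.1 bases in the other 10 EC libraries, so its rank rests on very short estimated lengths and no order of tissues can be read from it. Sdha was at 208 and 119, 179 and 181, and 99.3 and 802 TPM in the WT ECs of the same 3 tissues, and Ndufa10 at 441 and 144, 137 and 296, and 584 and 201 TPM. For both, the tissues overlap. The effective length of Ndufa10 was short too, 49.6 to 166.4 bases in the sorted libraries against up to 786.5 bases in a RiboTag library. Atp5h was at 327 and 269 TPM in WT cerebellum ECs, 400 and 359 TPM in anterior pituitary and 367 and 153 TPM in posterior pituitary.

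Barrier and fenestrated ECs were compared first. In WT ECs of cerebellum set against those of anterior pituitary, no member of 82 passed the test (edgeR quasi-likelihood test, adjusted p under 0.05), where 5.27% of the 17914 genes tested did. The median log2 difference of the members was -0.36, 20 were positive and 62 negative, and 7 had an unadjusted p under 0.05 (15.4% of all genes did), while the median of all genes was 0. Cerebellum against posterior pituitary, again in WT ECs, gave none (background 4.42%), with a median of 0.26, 54 positive and 28 negative, and 5 at an unadjusted p under 0.05 (all genes 14.3%). WT anterior against WT posterior pituitary ECs gave none (background 0.994%), with a median of 0.57 and 12 at an unadjusted p under 0.05 (all genes 11.6%). With DESeq2 1 member was called higher and 2 lower in cerebellum than in anterior pituitary ECs, 1 higher in cerebellum than in posterior pituitary ECs, and 5 higher in anterior than in posterior pituitary ECs (all genes 5.74%, 4.99%, 5.33% and 2.82%). Leaving out replicate 1 of the WT posterior pituitary ECs, which leaves the short-read-poor replicate alone in its group, called 7 members higher in cerebellum (all genes 4.13%) and 12 higher in anterior pituitary (all genes 2.59%). On the TPM scale (limma on log2(TPM + 1)) no member passed in any of the 3 comparisons, and the medians were -0.31, 0.06 and 0.29. Of the most abundant members, Atp5h differed by -0.37 ± 0.28 (SE) on the log2 scale between cerebellum and anterior pituitary ECs (adjusted p = 0.554) and Atp5b by -0.60 ± 0.26 (adjusted p = 0.278).

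Genes of other pathways were set beside them in the same ECs. Of the 13 mitochondrially encoded subunits, 7 were higher in cerebellum than in posterior pituitary ECs, with a median of 1.48, and none passed against anterior pituitary ECs (median 0.32). Of 17 glycolysis genes 3 were higher in cerebellum than in anterior pituitary ECs (median 0.45) and none than in posterior pituitary ECs. None of 16 citric acid cycle genes and none of 47 assembly factors passed in either comparison. Mural markers, 4 of 10 of which were higher in cerebellum ECs in both comparisons, moved with these results, and their part was not tested.

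Stabilizing beta-catenin left the members with few calls. In cerebellum ECs none of 82 passed (background 0.648%), 41 were positive and 41 negative, and 5 had an unadjusted p under 0.05 (all genes 9.77%). In anterior pituitary ECs none passed (background 0.458%), with a median of -0.33, 16 positive against 66 negative and 3 at an unadjusted p under 0.05 (all genes 6.99%). DESeq2 called none in either. In posterior pituitary ECs 1 passed (background 1.79%): Atp5h, at 337 and 293 TPM in stabilized and 367 and 153 TPM in WT ECs, rose by 1.25 ± 0.29 (SE) on the log2 count scale, with an adjusted p of 0.0489. The TPM of the groups overlap, since WT replicate 1 is the highest of the 4 libraries, and the call was lost with an offset for gene length, without normalization beyond library size and in a fit of only the groups compared. Uqcrb had 1.26 ± 0.31 (adjusted p = 0.0623) and Cox6b1 1.29 ± 0.35 (adjusted p = 0.104), and by sign 69 members were positive and 13 negative. The members' median was 0.76 on the count scale (0.72 with members at 0 in a group set to their bound) and 0.17 on the TPM scale, on which the median of all genes was -0.32 and no member passed. DESeq2 called 8 higher (all genes 4.67%), and leaving out WT replicate 1 gave 14 with edgeR (all genes 3.82%), while 1 of the 4 fits without a library kept Atp5h. Ribosomal protein genes, which are also short, moved the same way, with 9 of 81 higher and a median of 0.96. Microglia markers summed to 352 and 259 TPM in stabilized and 52 and 37 TPM in WT posterior pituitary ECs, with 3 of 10 called higher, and 2 of 10 endothelial markers were called lower. Hormone genes, nearly all of it Pomc, summed to 347 and 810 TPM in stabilized against 3377 and 478 TPM in WT. Their part in the members' values was not tested.

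**Figure D3:**
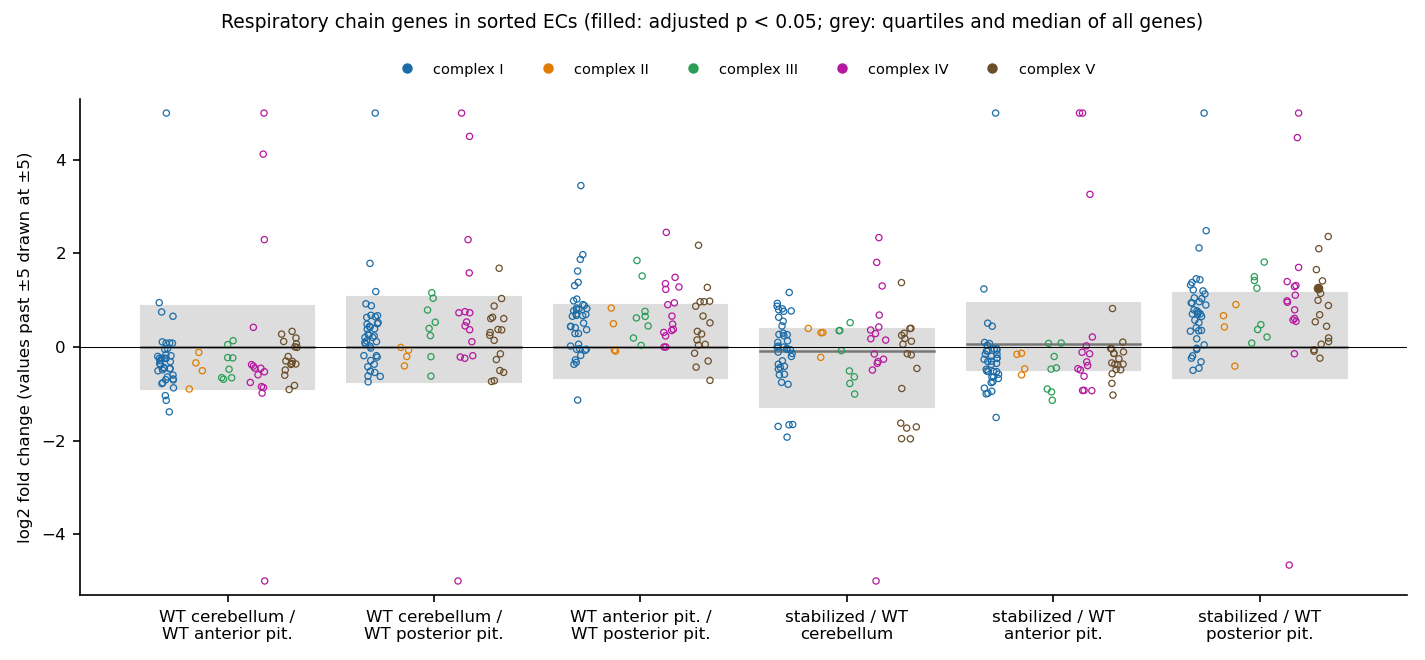
Log2 fold change (vertical axis, values past 5 either way drawn at the limit) of each tested member in 6 comparisons of sorted ECs, coloured by complex, filled where the adjusted p is under 0.05, with grey boxes for the quartiles and median of all genes. Atp5h in stabilized against WT posterior pituitary ECs is the 1 filled point, and the members' medians run from -0.36 to 0.76.

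The difference between tissues in the response to stabilization was tested directly. No member passed for posterior minus anterior pituitary (background 0.128%), anterior pituitary minus cerebellum (background 0.519%) or posterior pituitary minus cerebellum (background 0.927%). The medians were 1.07, -0.38 and 0.86, and 19, 5 and 13 members had an unadjusted p under 0.05, where 9.09%, 11.7% and 13.8% of all genes did. DESeq2 called 3, 0 and 2 members, all higher (all genes 1.14%, 3.4% and 4.58%), and leaving out replicate 1 of the WT posterior pituitary ECs gave 10 and 3 in the comparisons that use it (all genes 1.95% and 2.73%). The comparisons share control samples and are given side by side only.

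The parenchyma gave the same comparisons in the cells around the vessels. Between WT cerebellum and WT anterior pituitary GFP-negative cells 2 members passed (background 8.77%). Sdhc, a membrane anchor of complex II, was at 126 and 69.4 TPM against 37.4 and 17.6 TPM and was higher in cerebellum by 1.52 ± 0.39 (adjusted p = 0.0296), and Cox7a2l, a supercomplex assembly protein related to Cox7a, was at 65.9 and 39.4 TPM against 121 and 147 TPM and was lower by 1.51 ± 0.39 (log2 difference -1.51, adjusted p = 0.0296). Neither pair of groups overlaps. Against WT posterior pituitary parenchyma 4 passed, all higher in cerebellum (background 9.89%): Ndufb9 by 1.58 ± 0.43, Uqcrc1, a core protein of complex III, by 1.42 ± 0.41, Cox4i1 by 1.41 ± 0.41 and Sdhc by 1.38 ± 0.39, with adjusted p between 0.0355 and 0.0464. The count ran from 1 to 23 when a library was left out, the 23 without replicate 1 of the WT posterior pituitary parenchyma (all genes higher 8.05%), and against the anterior pituitary 1 of the 4 fits without a library kept Sdhc and none kept Cox7a2l. Anterior against posterior pituitary parenchyma gave none (background 1.67%), and stabilized against WT parenchyma gave none in cerebellum (background 0.760%), anterior pituitary (background 0.0408%) or posterior pituitary (background 0.133%). In these 4 comparisons 6, 5, 4 and 9 members had an unadjusted p under 0.05 (all genes 13.3%, 10.9%, 5.51% and 9.94%). DESeq2 called 1 lower, 2 lower, none and 1 higher, and its share of all genes is not given, so these counts have no background. Without replicate 1 of the WT posterior pituitary parenchyma the members' median was 0.87 in the first and 0.97 in the last, and more members were called.

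ECs and parenchyma of the same tissue were compared next. In WT cerebellum 5 of 83 members were lower in ECs (background 6.91%) and none higher (background 4.50%), no more than all genes gave, with a median of -0.62 against -0.12 for all genes. Cox8a, a small subunit of complex IV, was at 54.9 and 50.2 TPM in ECs and 201 and 188 TPM in parenchyma, a log2 difference of -2.10 ± 0.50 (SE, adjusted p = 0.00866). Ndufs1, the largest iron-sulfur subunit of complex I, was at 23 and 15.5 TPM against 60.5 and 46.4 TPM, a difference of -1.71 ± 0.38 (adjusted p = 0.00592). Cox4i1, a regulatory subunit of complex IV, was at 252 and 281 TPM against 620 and 463 TPM, a difference of -1.29 ± 0.40 (adjusted p = 0.0416). In these 3 genes the lowest parenchyma library lies above the highest EC library. The alpha and beta subunits of the complex V head were lower too, Atp5a1 by -1.14 ± 0.29 (adjusted p = 0.0141) and Atp5b, at 148 and 164 TPM against 363 and 243 TPM, by -1.09 ± 0.27 (adjusted p = 0.0114). DESeq2 called 9 members lower (all genes 12.2%), and an offset for gene length left 1, for which the share of all genes is not given. With limma on TPM 3 were lower and 1 higher, where 8.07% of genes were lower and 5.38% higher. The calls were also lost in part when a library was left out.

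Stabilized cerebellum gave 3 members higher in ECs (background 7.36%) and 3 lower (background 9.99%), fewer than all genes gave. Ndufs1 (-1.16 ± 0.38, adjusted p = 0.0406) and Atp5b (-0.87 ± 0.27, adjusted p = 0.0316) were called lower here as in WT. Of the 4 fits without a library in each genotype, 1 kept Ndufs1 in WT and 1 in stabilized cerebellum, and 2 and none kept Atp5b. Atp5g1, a gene of the c subunit of complex V, was at 3.91 and 0.0293 TPM in ECs and 22.1 and 38.3 TPM in parenchyma (-3.04 ± 0.97, adjusted p = 0.0363), with effective lengths of 942 and 3414.5 bases in those ECs against 260.2 to 320.7 in the other cerebellum libraries. Ndufa6 (2.41 ± 0.56, adjusted p = 0.0048), Ndufs6 (1.75 ± 0.55, adjusted p = 0.0325) and Cox7a2l (1.38 ± 0.38, adjusted p = 0.0169) were higher. Ndufa6 was at 67.3 and 77.6 TPM in ECs against 9.71 and 3.7 TPM in parenchyma, and at 38 and 64.9 TPM against 62.7 and 75.6 TPM in WT cerebellum, while the test of stabilized against WT parenchyma did not call it. The effective length of Ndufa6 was 565 bases in replicate 2 of the stabilized parenchyma against 165.8 to 267.9 in the other cerebellum libraries. Without replicate 2 of the ECs 1 was higher and none lower. With the replicate block within each preparation the calls of Ndufs1 (adjusted p = 0.116), Ndufs6 (adjusted p = 0.108) and Atp5g1 (adjusted p = 0.0586) were lost. Whether the fraction difference itself differed between genotypes was not tested.

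In the pituitary few members separated ECs from parenchyma. In WT anterior pituitary Ndufa8, an accessory subunit of complex I, was the 1 member higher (background 5.50%) and none was lower (background 5.89%). It was at 86.1 and 112 TPM in ECs and 37 and 34.1 TPM in parenchyma, a log2 difference of 1.39 ± 0.43 (adjusted p = 0.0412). WT posterior pituitary gave the same gene and no other higher (background 7.09%), at 135 and 91.1 TPM against 31 and 35.6 TPM (1.33 ± 0.43, adjusted p = 0.044), and 2 lower (background 7.49%). These were Ndufb2 (-1.77 ± 0.52, adjusted p = 0.027) and Cox8a, at 83.3 and 22.7 TPM against 153 and 93.5 TPM (-1.53 ± 0.49, adjusted p = 0.0432). The call of Ndufa8 was lost in 4 of 8 alternatives in each lobe and in all 4 fits without a library, although no EC library overlaps a parenchyma library in TPM. With the replicate block within each preparation its adjusted p was 0.0684 in the anterior and 0.0688 in the posterior lobe, and that of Ndufb2 was 0.0548, while Cox8a was at 0.0507 with the replicate number alone as the block. In posterior pituitary 9 members were higher without replicate 1 of the parenchyma (all genes 6.94%) and 5 lower without replicate 1 of the ECs (all genes 6.74%). In stabilized anterior pituitary none was higher (background 5.14%) or lower (background 3.18%), with 9 at an unadjusted p under 0.05 (all genes 19%) and 4 called lower by DESeq2 (all genes 7.5%). In stabilized posterior pituitary Cox5a, a nuclear core-associated subunit of complex IV, was higher, at 92.6 and 94.5 TPM against 26.5 and 18.3 TPM (2.03 ± 0.60, adjusted p = 0.0357, background 5.52%), and none was lower (background 5.07%). None of the 4 fits without a library kept the call of Cox5a (adjusted p up to 0.208).

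Part of the glycolysis genes were lower in ECs than in parenchyma in each WT tissue. In WT cerebellum 9 of 17 were lower (median -1.63), in WT anterior pituitary 6 and in WT posterior pituitary 6 (medians -0.89 and -0.99), with none higher. Citric acid cycle genes had 3 of 16 lower in WT cerebellum and none in the WT pituitary lobes, and the mitochondrially encoded subunits had none, none and 4 of 13 lower. Ribosomal protein genes went the other way in WT cerebellum, with 31 of 81 higher in ECs (median 1.52). In the same comparison 8 of 10 neuron markers and 6 of 8 astrocyte markers were lower in ECs, and how far the cells of the parenchyma set these values was not tested.

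RNA on EC ribosomes was set against the RNA of the whole tissue. In WT choroid plexus 72 of 82 members were lower in the bound than in the input RNA (background 9.56%) and none higher (background 10.3%), with a median log2 difference of -1.53 against 0.01 for all genes. At least a 2-fold difference was reached by 64 of them, against 6.64% of all genes. Stabilized choroid plexus gave 74 lower (background 11.5%) and none higher (background 11.2%), with a median of -1.38 against 0, and 8.48% of all genes passed the 2-fold rule. In stabilized cortex 72 were lower (background 15.6%) and none higher (background 11.9%), with a median of -1.26 against -0.30, 58 reached 2-fold and 12.2% of all genes did. Every complex took part: in WT choroid plexus 34 of 37 genes of complex I were lower, 2 of 4 of complex II, 8 of 8 of complex III, 13 of 16 of complex IV and 15 of 17 of complex V, and in stabilized cortex 34, 3, 8, 11 and 16. The lower calls numbered 62 to 71 in WT choroid plexus when any library was left out, 63 to 72 in stabilized choroid plexus, and 39 to 64 in stabilized cortex, the 39 without replicate 2 of its bound RNA.

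Cox8a was at 335 and 334 TPM in WT choroid plexus input and 106 and 133 TPM in its bound RNA, a log2 difference of -2.42 ± 0.22 (SE, adjusted p = 1.54e-05), and at 269 and 315 against 95.6 and 98.4 TPM in stabilized choroid plexus. Atp5mpl, a small proteolipid of complex V, was at 219 and 245 TPM against 95.8 and 70.5 TPM in WT choroid plexus (-2.37 ± 0.24, adjusted p = 3.03e-05). Ndufc1, an accessory subunit of complex I, was at 268 and 269 TPM against 119 and 83 TPM (-2.33 ± 0.37, adjusted p = 0.000681). In each of these the 2 inputs lie above the 2 bound libraries. Stabilized choroid plexus had its largest differences in Cox7a1 (-4.21 ± 1.05, adjusted p = 0.0111), Cox8b (-3.20 ± 0.49, adjusted p = 0.000902) and Ndufa1, a membrane subunit of complex I at 125 and 168 TPM against 23.4 and 34.6 TPM (-3.08 ± 0.25, adjusted p = 5.62e-06). Stabilized cortex had Atp5s, a coupling factor of ATP synthase (-2.24 ± 0.78, adjusted p = 0.0474, kept in none of the 4 fits without a library and at 0.0563 with the replicate block within each preparation), Atp5g1, at 71.5 and 63.1 TPM against 30.2 and 24.2 TPM (-2.11 ± 0.31, adjusted p = 0.000242), and Cox7b, at 444 and 483 TPM against 277 and 101 TPM (-2.10 ± 0.19, adjusted p = 3.63e-06).

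The members did not differ alike. Sdha differed by -0.30 ± 0.16 in WT choroid plexus (adjusted p = 0.225) and its TPM was 155 and 182 in the input and 226 and 267 in the bound RNA. Atp5b was lower by -0.89 ± 0.14 on the count scale (adjusted p = 0.000744), with 699 and 712 TPM in the input and 771 and 859 TPM in the bound RNA. For Atp5b the scales disagree in sign. TPM divides reads by the effective length that Salmon estimated in each library, and on that scale the median of all genes was itself higher in the bound RNA, by 0.49 in WT choroid plexus, 0.34 in stabilized choroid plexus and 0.26 in stabilized cortex. The members' medians on the TPM scale were -0.61, -0.65 and -0.24, so they lay below all genes in each. With limma on log2(TPM + 1) 29 members were lower and 1 higher in WT choroid plexus, where 1.13% of genes were lower and 23.9% higher. Stabilized choroid plexus gave 34 lower and 1 higher, where 2.36% were lower and 19.6% higher, and stabilized cortex 18 lower and none higher, where 3.08% were lower and 18.8% higher. The sign of the median is the same on both scales, and its size on the TPM scale is smaller.

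Most members are short, so the calls were also split at an effective length of 500 bases. Among protein-coding genes outside the members, 21.9% of those under 500 bases and 8.49% of longer ones were lower in WT choroid plexus, 17.2% and 12% in stabilized choroid plexus, and 15.4% and 17.9% in stabilized cortex, where the order is turned. Of the 14 members at or over 500 bases, 12, 14 and 14 were lower, and of the 68 shorter members 60, 60 and 58. The part of length in the members' values was not tested beyond this split and the offset for gene length. With that offset 41 members were lower in stabilized cortex. The share of all genes with the offset is not given, so this count has no background.

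**Figure D4:**
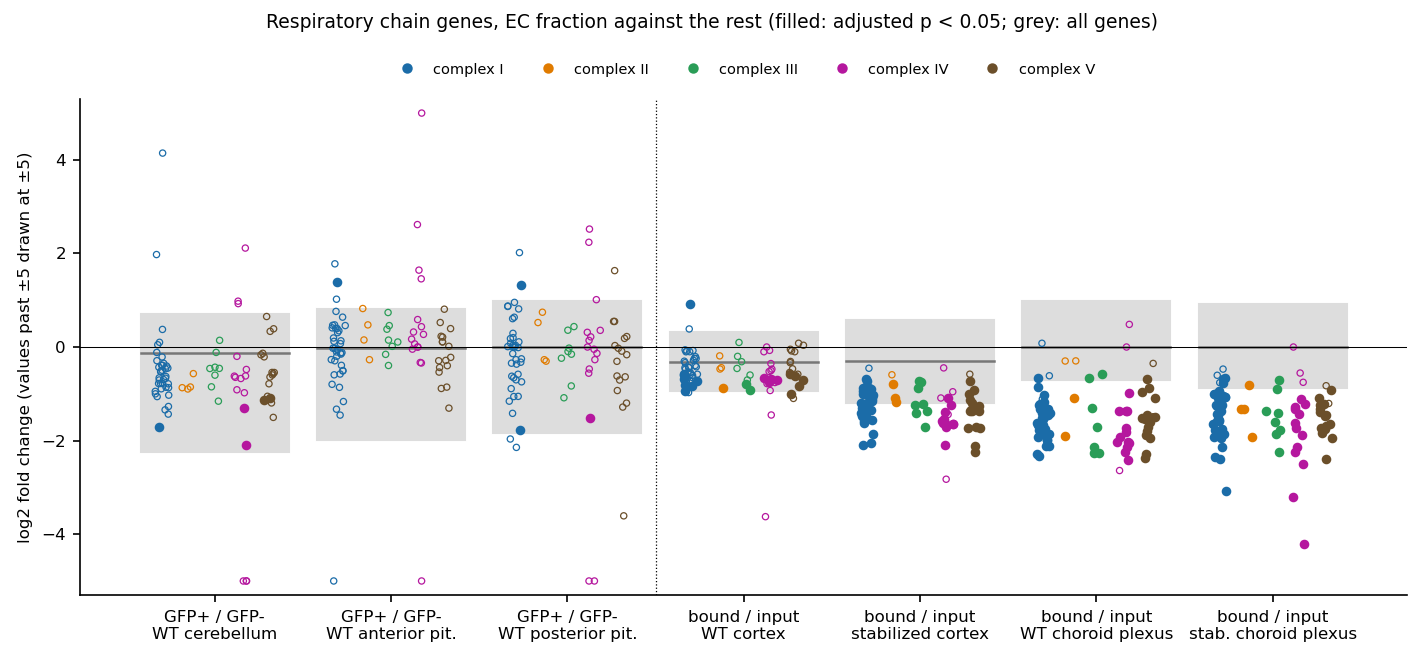
Log2 fold change (vertical axis, values past 5 either way drawn at the limit) of each tested member between GFP-positive and GFP-negative cells of the WT tissues (left) and between bound and input RNA (right), coloured by complex, filled where the adjusted p is under 0.05, with grey boxes for the quartiles and median of all genes. On the right the members' medians are -0.53 in WT cortex, -1.26 in stabilized cortex, -1.53 in WT choroid plexus and -1.38 in stabilized choroid plexus.

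Other lists of oxidative metabolism were lower in bound RNA to differing extents. Of the 13 mitochondrially encoded subunits, which cytosolic ribosomes do not translate, 10 were lower in WT choroid plexus (median -1.39), 11 in stabilized choroid plexus (median -1.62) and 12 in stabilized cortex (median -2.96). Both genes of cytochrome c and c1 were lower in all 3. Citric acid cycle genes had 7, 13 and 14 of 16 lower (medians -0.57, -0.89 and -1.01), mitochondrial carriers and channels 13, 14 and 13 of 16, and assembly factors 11, 10 and 18 of 47. Glycolysis genes had 8, 11 and 15 of 17 lower and 1 higher in each. The biogenesis regulators had none, 1 and 3 of 14 lower and 2, 2 and 3 higher, and no difference between lists was tested. Ribosomal protein genes, which are short and not part of the respiratory chain, had 73, 43 and 28 of 80 lower. Markers of other cells set these fractions apart: choroid plexus epithelium markers summed to 33430 to 41787 TPM in choroid plexus input and 11981 to 20425 TPM in bound RNA, neuron markers to 678 and 810 TPM in stabilized cortex input and 483 and 434 TPM in bound RNA, and microglia markers to 29 and 29 TPM in stabilized cortex input against 1424 and 1203 TPM in bound RNA. Their part in the members' values was not tested.

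WT cortex gave a weaker picture, with 19 members lower (background 7.54%) and 1 higher (background 8.22%) and a median of -0.53 against -0.33 for all genes. The member called higher was Ndufa7 (0.92 ± 0.26, adjusted p = 0.0311, and 0.0547 with the replicate block within each preparation), an accessory subunit of complex I at 5.19 and 9.07 TPM in input and 30 and 23.7 TPM in bound RNA. The largest falls were Atp5mpl (-1.01 ± 0.23), Ndufs1 (-0.94 ± 0.26, adjusted p = 0.027) and Uqcrc1 (-0.91 ± 0.17). The lower calls fell to 0 without the filter on low counts, with the length offset and in a fit of only these groups, and to 0 to 8 without a library. On the TPM scale none was lower and 1 higher, where 3.03% of genes were lower and 9.95% higher.

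Barrier and fenestrated tissue were also compared within the RiboTag libraries. In WT bound RNA 11 members of 81 were higher in cortex (background 17.0%) and 18 lower (background 14.7%), with a median of -0.15. Ndufb9, an accessory subunit of complex I, was at 335 and 327 TPM in cortex and 32.9 and 39.9 TPM in choroid plexus (2.27 ± 0.32, adjusted p = 0.00074), and Cox7a2l at 108 and 112 against 11 and 11.7 TPM (2.25 ± 0.27, adjusted p = 0.000289). Ndufb3 was at 122 and 137 against 13.2 and 9.08 TPM (1.88 ± 0.33, adjusted p = 0.00258). Lower in cortex were Cox8b and Cox6b2, described with their paralogs, and Atp5g1, at 25.5 and 41.3 TPM against 84.7 and 83.2 TPM (-2.27 ± 0.33, adjusted p = 0.000843). Stabilized bound RNA, which lacks the libraries that stand apart, gave another result for most of them: none was higher in cortex (background 9.63%) and 1 was lower (background 5.89%), with a median of 0.02, 7 at an unadjusted p under 0.05 (all genes 28.8%) and 0 higher by DESeq2. Ndufb9 was at 33.2 and 58 TPM in stabilized cortex and 51.7 and 36.1 TPM in stabilized choroid plexus (0.01 ± 0.31, adjusted p = 0.999). On the TPM scale the WT comparison had 30 higher and 5 lower, where 32.4% of genes were higher and 7.70% lower and the median of all genes was 0.74.

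The genotype comparison in bound RNA shows the same libraries. In cortex 6 members were higher (background 3.76%) and 7 lower (background 2.77%) in stabilized than in WT, with a median of -0.06. Ndufb9 was lower by -1.88 ± 0.31 (adjusted p = 0.0105) and Cox7a2l by -1.56 ± 0.26 (adjusted p = 0.0102). Cox7c, a small subunit of complex IV, was at 101 and 51.2 TPM in stabilized and 780 and 665 TPM in WT (-1.97 ± 0.31, adjusted p = 0.00909). Ndufs5 was higher, at 54.8 and 53.2 against 9.89 and 24.3 TPM (2.57 ± 0.43, adjusted p = 0.0104), and so was Ndufa7, at 76.3 and 50.4 against 30 and 23.7 TPM (2.296 ± 0.37, adjusted p = 0.00958). Leaving out replicate 1 of the stabilized bound RNA left none higher and 1 lower. On the TPM scale 1 was higher and 29 lower, where 1.85% of genes were higher and 19.4% lower. In choroid plexus no member passed (background 0.852%), with a median of -0.20 and 13 at an unadjusted p under 0.05 (all genes 13.9%), and DESeq2 called 4 lower (all genes 1.88%). The response in choroid plexus minus that in cortex passed in 2 members (background 2.15%), Ndufb9 (2.26 ± 0.44, adjusted p = 0.0374) and Cox7a2l (1.80 ± 0.36, adjusted p = 0.042), with a median of -0.38. Of 8 fits without a library, 5 kept Ndufb9 and 1 kept Cox7a2l, and with the replicate block Cox7a2l was not called (adjusted p = 0.0651).

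Whole tissue showed how far WT cortex depends on the scale. On the count scale 61 of 82 members were lower in WT cortex than in WT choroid plexus input (background 34.6%) and 10 higher (background 34.1%), with a median of -1.66, while on the TPM scale 29 were lower and 36 higher (10.3% and 67.9% of genes) with a median of 0.08 against 1.22 for all genes. Cox7c, at 882 and 909 TPM in cortex and 109 and 123 TPM in choroid plexus (0.85 ± 0.13, adjusted p = 0.000653), and Cox7a2l, at 80.3 and 90.5 against 11.5 and 11.7 TPM (0.74 ± 0.11, adjusted p = 0.00052), were higher in WT cortex input. Stabilized against WT cortex input turned sign: 47 higher and 7 lower on the count scale (backgrounds 13.8% and 11.3%, median 0.92), and 18 higher and 41 lower on the TPM scale (3.41% and 67.5% of genes, median -0.41 against -0.998). Ndufa7, at 44.8 and 45.3 TPM in stabilized and 5.19 and 9.07 TPM in WT (3.74 ± 0.20), and Ndufs5, at 80.3 and 77.3 against 30.3 and 33.8 TPM (3.07 ± 0.13), were higher, and their TPM do not overlap between genotypes. Cox7c, at 121 and 144 against 882 and 909 TPM (-0.95 ± 0.13), Uqcrc2, at 22.4 and 18.3 against 86.4 and 94.5 TPM (-0.84 ± 0.10), and Sdhd, at 12.6 and 12.1 against 41.2 and 46.2 TPM (-0.80 ± 0.12), were lower, also with no overlap in TPM. Between the inputs of WT and stabilized choroid plexus no member passed (background 0.106%, median -0.21, 7 at an unadjusted p under 0.05 against 7.41% of all genes, none by DESeq2).

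Stabilized cortex and stabilized choroid plexus, whose libraries are alike in effective length, gave the tissue comparison without WT cortex. In their input 37 members were lower in cortex (background 27.9%) and 8 higher (background 30.1%), with a median of -0.33. On the TPM scale 24 were lower and 19 higher, where 16.3% of genes were lower and 26.6% higher. Ndufb4 (0.79 ± 0.18, adjusted p = 0.00544) and Ndufa10 (0.72 ± 0.11, adjusted p = 0.000771), both of complex I, were among the largest rises.

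Choroid plexus and cortex differed in the tissue-restricted genes of complex IV subunits. Cox8b, the heart and muscle form beside the general Cox8a, was at 75.5 and 76.9 TPM in WT choroid plexus input and 81 and 84.9 TPM in stabilized, and at 50.1 and 21.1 TPM in WT and 17 and 11.7 TPM in stabilized bound RNA. It was listed at 0 in all 4 WT cortex libraries and reached 1.3 to 4.13 TPM in stabilized cortex and at most 2.6 TPM in the sorted ECs, where it was found in 1 WT cerebellum library and listed at 0 in all WT pituitary libraries. From a limit of 3 reads over the group, cortex input of stabilized mice exceeded that of WT by at least 15-fold (adjusted p = 0.000633) and at least 11.3-fold in bound RNA (adjusted p = 0.0413, kept in 1 of 4 fits without a library and at 0.0526 with the replicate block), and it was at least 550-fold lower in WT cortex than in WT choroid plexus input and at least 156-fold lower in bound RNA. Between the stabilized tissues the input differed by -5.51 ± 0.19 (adjusted p = 2.95e-06) and the bound RNA by -2.47 ± 1.02 (adjusted p = 0.154). Cox6b2, the testis form beside Cox6b1, was at 47 and 45.5 TPM in WT and 52.1 and 48.1 TPM in stabilized choroid plexus input, at 16.9 to 30.9 TPM in choroid plexus bound RNA, and at 0 to 1.73 TPM in cortex. It was lower in cortex in all 4 comparisons, by -6.93 ± 0.30 in WT input (adjusted p = 1.3e-06), -6.39 ± 1.11 in WT bound (adjusted p = 0.00233), -5.23 ± 0.28 in stabilized input (adjusted p = 5e-06) and -3.93 ± 1.0042 in stabilized bound RNA (adjusted p = 0.0275, kept in 2 of 4 fits without a library). Cox7a1, the muscle form beside Cox7a2, was at 24.4 and 25.8 TPM in WT choroid plexus input and 1.84 and 0.948 TPM in WT cortex input (-5.89 ± 0.41, adjusted p = 8.84e-06), and at 7.78 and 7.71 TPM in WT choroid plexus bound RNA. Between the stabilized inputs it was lower in cortex by -2.98 ± 0.36 (adjusted p = 0.000213). All 3 are lower in the bound than in the input libraries of choroid plexus, as are its epithelial markers, given above. In input the TPM of choroid plexus and cortex do not overlap for any of the 3. In stabilized against WT cortex input Cox6b2 (1.70 ± 0.41, adjusted p = 0.021) and Cox7a1 (2.38 ± 0.46, adjusted p = 0.00969) rose with Cox8b. These rises rest on the WT cortex libraries, which stand apart, and their cause was not tested.

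**Figure D5:**
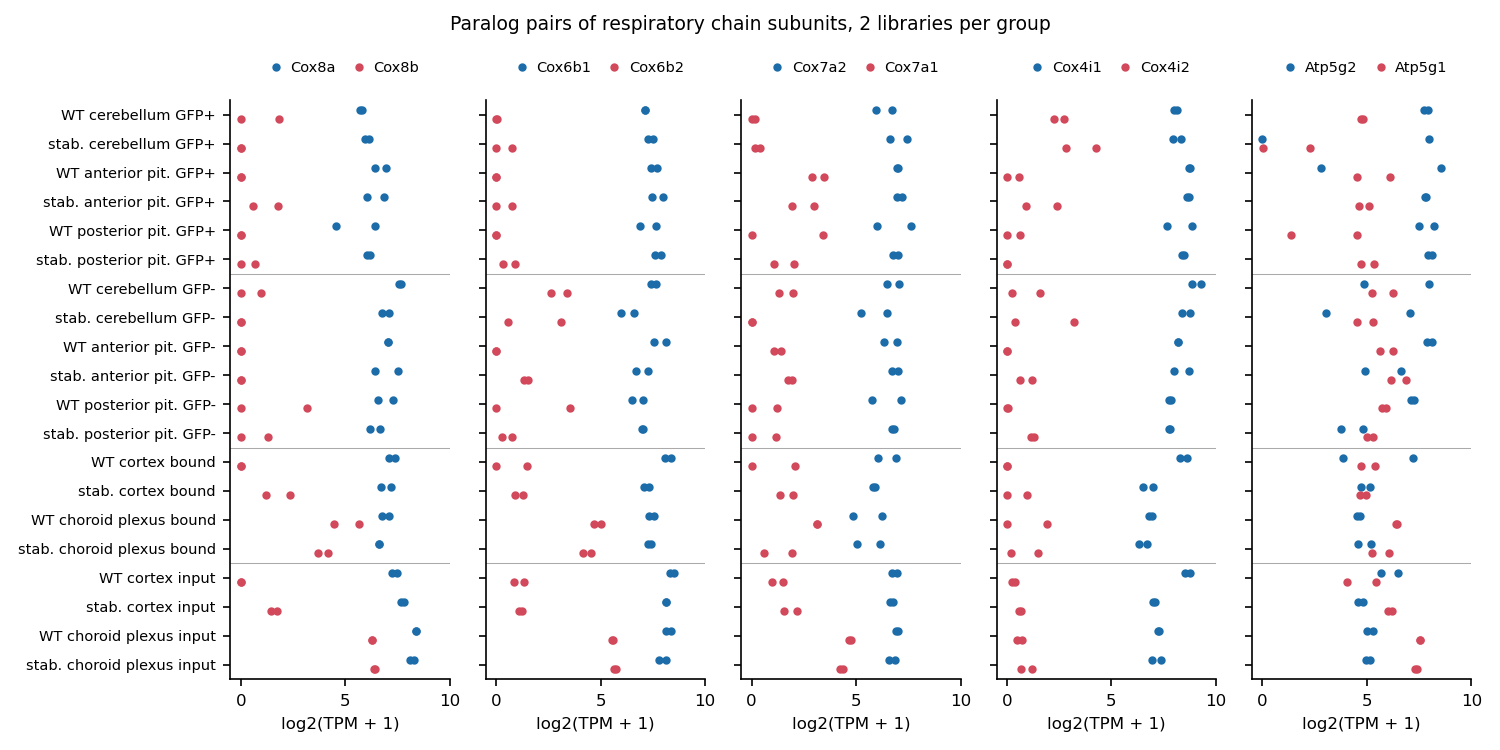
Level, as log2(TPM + 1) on the horizontal axis, of 5 pairs of paralogs in the 20 groups, with 1 point per library. In choroid plexus input Cox8b is at 75.5 to 84.9 TPM, Cox6b2 at 45.5 to 52.1 TPM and Cox7a1 at 17.7 to 25.8 TPM, and in cortex the 3 reach at most 4.13 TPM, while Cox8a, Cox6b1 and Cox7a2 are present in every library.

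The stretch of 90 bases before the start of Cox8a and of Cox8b is printed to set the general and the restricted gene side by side. In the full promoter window Cox8a holds the ETS motif in reverse complement at bases -5 to 2 and 33 to 39 from its start, of which the stretch shown holds only the first bases of the former, Cox8b holds none of the 3 motifs, and of the pair Cox8a had an ATAC-seq peak at its start in the sorted ECs.

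Cox8a, chr19:7217617-7217706, minus strand: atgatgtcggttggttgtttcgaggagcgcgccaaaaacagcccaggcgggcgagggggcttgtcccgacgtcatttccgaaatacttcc
Cox8b, chr7:140900447-140900536, minus strand: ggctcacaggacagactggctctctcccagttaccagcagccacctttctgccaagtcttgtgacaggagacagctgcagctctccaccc

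Among the remaining paralogs at low levels only Cox6a2 was called between tissues. Cox6a2, the muscle form beside Cox6a1, was found at 0.17 to 3.0 TPM in cortex, was listed at 0 in every choroid plexus and sorted EC library, and was higher in cortex input, at least 7.72-fold in WT (adjusted p = 0.0236) and at least 17.7-fold in stabilized mice (adjusted p = 0.0102), both from 3 reads over the choroid plexus group. The WT call was lost with the replicate block (adjusted p = 0.0503) and kept in 1 of 4 fits without a library. Ndufa4l2, a hypoxia-responsive relative of Ndufa4, was at 13.4 and 13.6 TPM in WT cerebellum ECs, 17 and 0.299 TPM in stabilized cerebellum ECs, and 0 to 0.35 TPM in WT pituitary ECs. From 3 reads over the group it was at least 135-fold lower in WT posterior pituitary than in WT cerebellum ECs, yet the test did not call it (adjusted p = 0.101). Cox4i2, the lung form beside Cox4i1, was at 3.82 and 5.69 TPM in WT cerebellum ECs and 0 to 0.559 TPM in WT pituitary ECs (adjusted p = 0.458 in both comparisons). Both genes are known from pericytes, and mural markers were higher in the cerebellum libraries, as given above. Cox7a1 ran the other way in ECs, with 0 and 0.107 TPM in WT cerebellum and 6.54 and 10.2 TPM in WT anterior pituitary (adjusted p = 0.326). Cox7b2 was at 30.2 and 5.29 TPM in WT cerebellum parenchyma and at 0 in all sorted ECs, and Cox8c, a testis form, was at 0 in every library and passed no filter. Of the 3 genes that encode the same c subunit of complex V, Atp5g2 varied most between replicates of sorted ECs (0 to 372 TPM), Atp5g3 stood at 10.4 to 140 TPM, and Atp5g1 was highest in choroid plexus input (158 to 188 TPM) against 15.4 to 71.5 TPM in cortex input. These 3 genes share coding sequence for the mature protein, so their estimates are uncertain.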

How the data were processed

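RNA-seq of sorted cells and RiboTag RNA was quantified by the authors with Salmon 0.10.2 against Ensembl transcripts, and the deposited values are estimated counts and TPM per transcript; single-end reads came from amplified cDNA. The deposited ATAC-seq peaks, called per library with MACS2 2.1.1.20160309 after Bowtie2 2.3.2, give fold enrichment (a ratio) and -log10 q. Estimated counts were summed per gene, with 0.05885% to 0.385% of reads on transcripts not matched to a gene, and rounded. They were tested with edgeR 4.0.16 (quasi-likelihood, TMM, low counts filtered, Benjamini-Hochberg over all genes, threshold 0.05), in separate fits for GFP-positive, GFP-negative, all sorted, bound, input and all RiboTag libraries, and checked on simulated data. Fold changes are log2 with SE. Both fractions of a RiboTag sample came from 1 homogenate and sorted fractions from 1 dissociated tissue, so equal replicate numbers probably mark 1 preparation, although no label states it, and deviations of same-numbered fractions correlated by -0.0038 to 0.1435. Blocked values are given beside the calls of named genes that they end, and calls within the counts can end with a block too. Alternatives included DESeq2 1.42.0, other scalings, a length offset, a replicate block and leaving out each library. With 2 libraries a group the spread between them may be partly technical.

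The members and lists were chosen with earlier results of these data known. The split by length, the ribosomal protein list and the test on log2(TPM + 1) with limma 3.58.1 were chosen after seeing the data. Genes named are the most abundant member of each complex, members with a paralog, and the 3 largest rises and falls among called members in each comparison, and others were named after their values were seen.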

Additional observations from a re-analysis of the deposited data

Results flagged for a closer look

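The response of bound RNA to stabilization differed between tissues by a test of the difference itself in 2 members of 81, near the 2.15% of all genes called there. Ndufb9 differed by 2.26 on the log2 scale (choroid plexus minus cortex, edgeR adjusted p = 0.0374) and Cox7a2l by 1.80 (adjusted p = 0.042, and 0.0651 with the replicate block). Both rest on the WT cortex bound libraries, which stand apart in effective length per read. The share of TPM taken by complex II in input RNA moved in opposite directions in the tissues, with a difference of -0.0425 percentage points (stabilized minus WT in cortex, minus the same in choroid plexus), and this difference was not tested. In cortex it was 0.0653% ± 0.0079 (SD, n = 2) in WT and 0.0251% ± 0.0023 in stabilized input, and in choroid plexus 0.0211% ± 0.0028 and 0.0234% ± 0.0004, which is within the spread, so the difference rests on the WT cortex input that stands apart.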

How the results depend on the processing

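With 2 libraries a group, calls near the threshold moved with 1 library or 1 setting, and the cause was not tested unless a value is given. The counts of called members below stand without the share of all genes under the same setting. They show how the calls move and are no result on the members. Counts were taken first, of members with a peak and of members called in the main comparisons. The main comparisons were those of WT fractions and, in sorted ECs and bound RNA, of WT tissues and of genotypes. Of these counts 289 stayed within 1.5 times the reported count and 99 did not. Of the values of single members 8499 kept their direction and side of the threshold, 313 lost and 118 gained a call, and 8 reversed. With medians, shares of TPM and counts of the other comparisons added, 9273 stayed and 223 moved.

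DESeq2 called 1 member higher and 2 lower in WT cerebellum against anterior pituitary ECs, 1 higher against posterior pituitary ECs, 5 higher in anterior against posterior pituitary ECs and 8 higher in stabilized posterior pituitary ECs. In the WT sorted fractions it called 9 lower in cerebellum, 2 higher and 1 lower in anterior pituitary, and 2 higher and 6 lower in posterior pituitary. In bound RNA of stabilized against WT it called 11 lower in cortex and 4 lower in choroid plexus. Without the filter on low counts 1 member was higher in cerebellum and 4 in anterior against posterior pituitary WT ECs, 1 lower in stabilized cerebellum ECs, 5 higher in stabilized posterior pituitary ECs, 0 higher in the WT anterior and 0 higher and 1 lower in the WT posterior pituitary fractions, 2 lower in stabilized choroid plexus bound RNA and 0 lower in the WT cortex fraction.

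The effective-length offset gave 0 higher in stabilized posterior pituitary ECs, 1 lower in the WT cerebellum fraction, 0 higher in the WT anterior pituitary fraction, 2 higher and 0 lower in the WT posterior pituitary fraction, 5 higher in WT cortex against choroid plexus bound RNA, 1 lower in stabilized against WT cortex bound RNA and 0 lower in the WT cortex fraction. Library size alone gave 0 higher in stabilized posterior pituitary ECs, 0 higher and 1 lower in both WT pituitary fractions, and 3 lower in the WT cortex fraction, and RLE normalization gave 10 lower there. Fits of only the groups compared gave 0 higher in stabilized posterior pituitary ECs, 1 lower in the WT anterior and 0 higher and 0 lower in the WT posterior pituitary fraction, and 0 higher and 0 lower in the WT cortex fraction.

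limma on log2(TPM + 1), chosen after seeing the data, gave 0 higher in stabilized posterior pituitary ECs, 1 higher and 3 lower in the WT cerebellum fraction, 0 higher in the anterior and 3 higher in the posterior pituitary fraction, 30 higher and 5 lower in WT cortex against choroid plexus bound RNA, 1 higher and 29 lower in stabilized against WT cortex bound RNA, 0 lower in the WT cortex fraction, and 1 higher and 29 lower in the WT choroid plexus fraction. Stabilized tissues in place of WT gave 0 higher and 1 lower in cortex against choroid plexus bound RNA.

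In the bound against input comparisons of choroid plexus no named member lost its call with a block. With the replicate block 1 member was lower in the WT posterior pituitary fraction. With the replicate block within each preparation 1 was higher in the WT cerebellum fraction, 0 higher in the WT anterior pituitary fraction, 1 lower in the WT posterior pituitary fraction and 0 higher in the WT cortex fraction.

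Leaving out each library gave 0 to 1 lower in WT cerebellum against anterior pituitary ECs, 0 to 7 higher against posterior pituitary ECs, 0 to 12 higher in anterior against posterior pituitary ECs, 0 to 2 lower in stabilized cerebellum ECs and 0 to 14 higher in stabilized posterior pituitary ECs. In the WT fractions it gave 0 to 2 lower in cerebellum, 0 higher in anterior pituitary, 0 to 9 higher and 0 to 5 lower in posterior pituitary, and 0 to 3 higher and 0 to 8 lower in cortex. In bound RNA it gave 4 to 10 higher in WT cortex against choroid plexus, and 0 to 6 higher and 1 to 6 lower in stabilized against WT cortex.

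Values that reversed were Atp5h in the WT posterior pituitary fraction (from -0.59 to 1.49 over fits without a library, the latter without replicate 1 of the parenchyma), Atp5g2 in the stabilized cerebellum fraction (from -13.37, without replicate 1 of the ECs, to 2.88), Atp5g2 in WT cortex against choroid plexus bound RNA (-1.75 to 1.70) and in stabilized against WT cortex bound RNA (-1.32 to 2.09), reversed in both without replicate 2 of WT cortex, Sdha in WT cortex against choroid plexus input (0.44 with library size alone), and, with the effective-length offset, Atp5b in stabilized against WT cortex bound RNA (1.45) and input (2.04) and Ndufa10 in that input (-1.46).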
